A study of Xenopus tropicalis with 18 samples.

Results

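The comparison described here sets foregut explants of Xenopus tropicalis embryos injected with an Rfx6 morpholino against foregut explants of embryos treated with cyclopamine. It holds 6 of the 18 libraries of the series, 3 in each group, taken by their labels. These groups were paired because their mean positions along the gut axis, measured from the same libraries, were alike. Embryos of the Rfx6 group had received 1 ng of the morpholino, 500 pg in each cell of the 2-cell embryo, and 0.1% DMSO. Embryos of the cyclopamine group had been kept in 40 µM cyclopamine between stages 15 and 33. Control foregut, whose 3 libraries are given beside both groups, came from embryos with 0.1% DMSO and 1 ng of an oligo with 5 mismatched bases. The label of the cyclopamine group names the drug alone, so whether its embryos were also injected, or held DMSO, is not stated, and the direct comparison cannot tell the target apart from the injection or the way the agent was given. All groups share the stock labelled NXR_1018, Xtr.NigerianSt549, the stage (33, a tailbud stage) and the dissected tissue, mesoderm with endoderm, pooled from 8 explants a library. The remaining libraries of the series are control hindgut, control head with pharynx and foregut from embryos given BMS493. The labels of control hindgut and of control head with pharynx name 0.1% DMSO and no injection. BMS493, which acts on retinoic acid receptors, was given at 100 nM from stage 15.

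Hedgehog ligands made by the gut endoderm act mainly on the mesoderm around it: they relieve the inhibition of Smoothened by Patched, and Smoothened then activates transcription through the Gli factors. Cyclopamine binds Smoothened and blocks this step. Rfx6 is a winged-helix transcription factor of gut and pancreatic endoderm, known in mouse and human for its part in making the endocrine cells of the pancreas. A morpholino is an antisense oligo that blocks the translation or splicing of its target RNA.

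The 6 libraries held between 33172422 and 75117453 counts, so that 1 CPM, a count scaled to library size, stood for at least 33.2 counts. The deposited tables name genes only by identifiers and pair no symbols with them, so the Rfx6 transcript, Hedgehog targets and markers of the dissected tissues are not analysed here. Position along the gut was read instead from genes that differed between the control tissues. Replicates 1 and 2 lay closer to each other than to replicate 3 in both treated groups. The root mean square log2 distance between libraries was 0.302 for replicates 1 and 2 of the Rfx6 group and up to 0.684 for its replicate 3, and the distances within the cyclopamine group lay between 0.274 and 0.392. The 9 distances between the groups lay between 0.593 and 0.775, and the 3 highest, 0.739 to 0.775, all involved Rfx6 replicate 3. The closely matching replicates still differed beyond counting noise. Their median squared difference was 2.38 times that of sampling in the Rfx6 pair and 2.08 times in the cyclopamine pair. They were counted separately, but such an excess does not show that they came from separate embryos. Counts below are therefore also given without Rfx6 replicate 3, with replicates 1 and 2 of each treated group summed into 1 library, or as a range over fits that leave out each of the 6 libraries in turn. Nothing in the labels says that the libraries of a group came from separate clutches, so p-values measure the spread between these libraries, which may be technical.

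The foregut of Rfx6 morphants and that of cyclopamine-treated embryos differed in 3936 of 18542 genes tested, 21.2%, and most of these differences were small. Under edgeR's quasi-likelihood test at an adjusted p of 0.05, 1883 genes were higher in the Rfx6 group (10.2% of those tested) and 2053 were lower (11.1%). The median absolute log2 difference of the called genes was 0.52, with a median standard error of 0.11. At least a 2-fold difference was reached by 414 of the higher genes (2.23% of all tested) and by 343 of the lower ones (1.85%). At least 8-fold differences were found for 23 higher and 11 lower genes. With replicates 1 and 2 summed, 325 genes were called higher and 386 lower, of 18353 tested. All 3930 of the called genes that were tested in that fit kept their direction. It uses the same libraries, so directions had little room to change. Leaving out 1 library gave 1053 to 1926 higher and 1155 to 2275 lower genes, with the fewest calls without replicate 1 or 2 of either group.

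Calls were made at every level of expression, and differences of at least 2-fold were most frequent below 10 CPM. Below 1 CPM, 161 genes were higher and 69 lower in the Rfx6 group, 8.55% of 2690 together, and 145 and 61 of these reached 2-fold. Between 1 and 10 CPM, 589 were higher and 514 lower of 5104, and 193 and 152 of these reached 2-fold. Between 10 and 100 CPM the counts were 926 higher and 1252 lower, 24.8% of 8788, of which 68 and 106 reached 2-fold. Above 100 CPM, 207 were higher and 218 lower, and 8 and 24 of these reached 2-fold. The median standard error was 0.43 below 1 CPM, 0.18 from 1 to 10 CPM, 0.09 from 10 to 100 CPM and 0.07 above. Weak genes thus needed larger differences to be called, so these counts do not show that they differed more. All 3 Rfx6 libraries lay above all 3 cyclopamine libraries for 1870 of the 1883 higher genes, against a background of 22.4% of all genes tested. They lay below all 3 cyclopamine libraries for 2039 of the 2053 lower genes, against a background of 23.1%. The genes were called on these same libraries, and both backgrounds include them, so the separation is not a separate result.

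**Figure D1:**
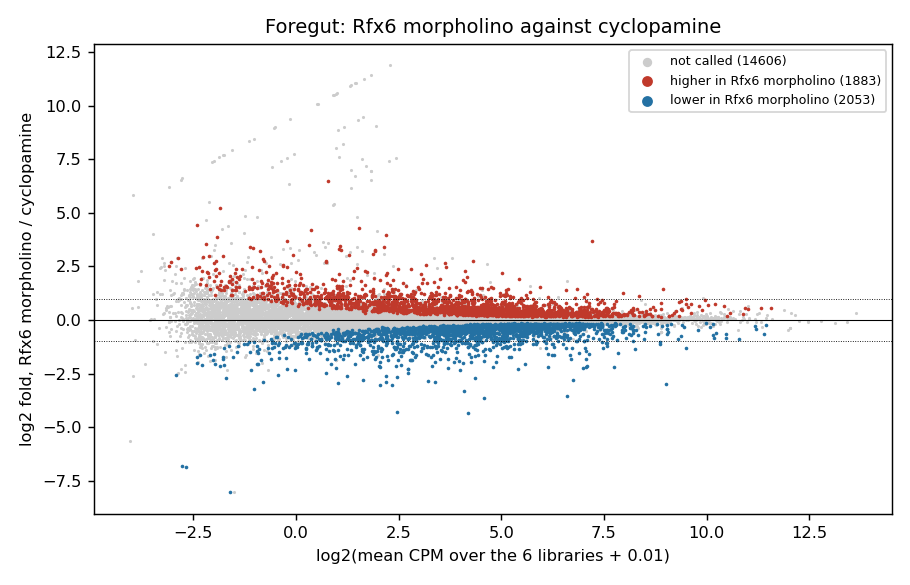
Each point is a tested gene: the horizontal axis gives its mean level over the 6 libraries (log2 CPM) and the vertical axis the log2 difference, Rfx6 morpholino over cyclopamine, with dotted lines at 2-fold. The 1883 red genes were higher and the 2053 blue genes lower in the Rfx6 group, and the grey points far above the line did not pass the test.

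Genes were grouped by where they were expressed in control embryos, which uses none of the 6 libraries compared. A class holds genes at least 2-fold higher, at an adjusted p of 0.05 in edgeR, in the named control tissue or tissues than in the others. Control foregut was injected with the mismatched oligo, and no injection is named for the other control tissues. Classes that set foregut against them thus cannot tell the tissue apart from the injection. In 3 classes the same side held more called genes in every fit tried. Genes lowest in foregut were called higher in the Rfx6 group more often than lower. Genes enriched in foregut, or shared by head with pharynx and foregut, were called lower more often than higher, though most of them were not called. The smallest margin was 2 higher and 1 lower of 19 genes lowest in foregut, at a class limit of 4-fold with replicates 1 and 2 summed. Genes of the hindgut class were called often in both directions, and in them, as in the genes enriched in head with pharynx, leaving out Rfx6 replicate 3 changed the side with more calls. In bulk tissue, fewer cells of a type and less RNA per cell cannot be told apart, for these classes and for all results below.

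The class lowest in foregut held 59 genes, of which 55 passed the filter on low counts. Of these, 24 were higher in the Rfx6 group, 43.6% against the background of 10.2%, and 4 were lower. Their median log2 difference was 0.63, against -0.00094 for all genes tested. The mean log2 CPM of the class was 1.71, 1.74 and 2.00 in the Rfx6 libraries, 1.26, 1.25 and 1.38 in the cyclopamine libraries and 0.66, 0.73 and 0.77 in control foregut. The treated groups did not overlap, and the exact two-sided permutation test over the 3 and 3 libraries gave p = 0.1, the smallest it can give. The class took 0.0541 ± 0.00523% of counts in the Rfx6 group and 0.0336 ± 0.00166% in the cyclopamine group (SD, n = 3 each). Without Rfx6 replicate 3 the counts were 23 higher (41.8%) and 8 lower (14.5%), against 10.2% and 12.1% of all genes in that fit. With replicates 1 and 2 summed they were 12 and 1 of 54 (22.2% and 1.85%), against 1.77% and 2.10% of all genes. Leaving out any other library gave 18 to 21 higher and 2 or 3 lower. Since the class was chosen for low values in the control foregut libraries, its height over them is not a separate result.

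The foregut-enriched class held 444 genes, of which 443 were tested. In the Rfx6 group 97 were lower, 21.9% against the background of 11.1%, and 29 were higher, 6.55% against 10.2%. Of the lower ones 57 reached 2-fold, against 14 of the higher ones. The middle of the class did not move with its called genes: the median log2 difference was -0.09. Over the class, mean log2 CPM was 2.28, 2.23 and 1.72 in the Rfx6 libraries, 2.30, 2.31 and 2.19 in the cyclopamine libraries and 3.03, 2.33 and 3.04 in control foregut. Rfx6 replicates 1 and 2 lay among the cyclopamine libraries and replicate 3 lay below them (exact permutation p = 0.5). The class was chosen for high values in the control foregut libraries, so treated means below them are not a separate result. Without Rfx6 replicate 3, 78 genes were lower (17.6%) and 42 higher (9.46%), against 12.1% and 10.2% of all genes in that fit. The median turned to 0.06. Leaving out any other library gave 70 to 83 lower and 8 to 13 higher. With replicates 1 and 2 summed, 34 were lower and 3 higher, 7.67% and 0.677%, against 2.10% and 1.77% of all genes.

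The class common to head with pharynx and foregut had a lower mean in each Rfx6 library. It held 276 genes, all tested, of which 62 were lower (22.5%) and 23 higher (8.33%), against 11.1% and 10.2% of all genes tested. The median log2 difference of the 276 genes was -0.16. Its mean log2 CPM was 1.60, 1.63 and 1.64 in the Rfx6 libraries, 1.81, 1.81 and 1.73 in the cyclopamine libraries and 1.92, 1.80 and 1.91 in control foregut. All 3 Rfx6 libraries lay below the lowest cyclopamine library (exact permutation p = 0.1). High values in control foregut were part of the choice of this class, so treated means below control are not a separate result. As a share of counts the class made up 0.274 ± 0.00137% in the Rfx6 group and 0.350 ± 0.00726% in the cyclopamine group (SD, n = 3 each), with 0.291 ± 0.00389% in control foregut. Leaving out Rfx6 replicate 3 gave 74 lower (26.8%) and 28 higher (10.1%), against 12.1% and 10.2% of all genes in that fit. Summing replicates 1 and 2 gave 25 and 5 of 274 (9.12% and 1.82%), against 2.10% and 1.77% of all genes. Leaving out any other library gave 43 to 50 lower and 14 to 17 higher.

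**Figure D2:**
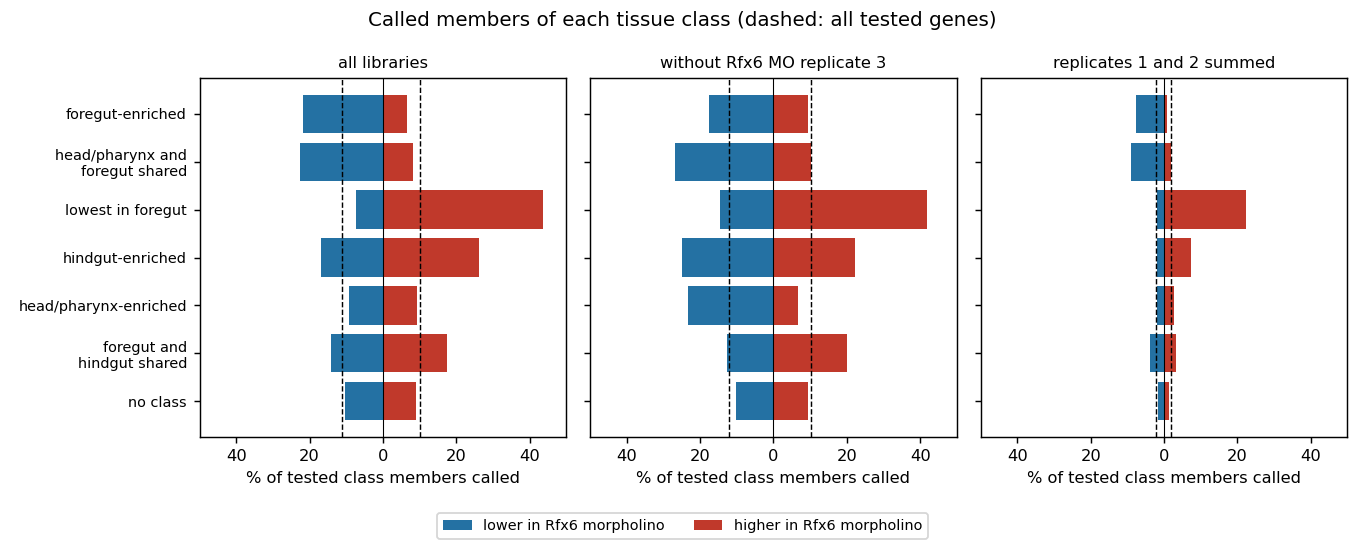
Bars give the percentage of tested genes of each control tissue class that were called higher (red, to the right) or lower (blue, to the left) in Rfx6 morpholino than in cyclopamine foregut, and dashed lines give the same for all genes tested. The panels use all libraries, leave out Rfx6 replicate 3, or sum replicates 1 and 2 of each treated group; the head with pharynx class leans to the blue side in the middle panel alone.

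The hindgut-enriched class, 523 genes with 509 tested, was pulled in both directions: 134 were higher in the Rfx6 group (26.3%) and 86 were lower (16.9%), with a median log2 difference of 0.04. Without Rfx6 replicate 3 the counts turned to 113 higher and 127 lower, with a median of -0.06, and without cyclopamine replicate 3 they were 137 and 51. Leaving out replicate 1 or 2 of either group gave 82 to 104 higher and 37 to 58 lower, and summing them gave 37 and 10. Mean log2 CPM of the whole class was 2.83 ± 0.225 in the Rfx6 group and 2.63 ± 0.204 in the cyclopamine group (SD, n = 3 each). Its share of counts had the opposite order, at 1.99 ± 0.346% and 2.29 ± 0.258%, with 2.64 ± 0.385% in control foregut. The treated groups overlapped in both measures (exact permutation p = 0.3 for each). The direction of the calls followed how much higher a gene was in hindgut than in foregut of controls. Of the 317 genes that were 2 to 3 times higher in hindgut than in foregut of controls, 58 were higher and 73 lower in the Rfx6 group, with a median log2 difference of -0.16. Of the 63 genes with a control difference of 4-fold to 8-fold, 20 were higher and 1 lower, with a median of 0.62. Of the 42 genes with 8-fold or more, 27 were higher and 0 lower, with a median of 2.19. The background for these bins was 10.2% higher and 11.1% lower of all genes tested. The 42 genes were measured with less precision, at a median standard error of 0.46 against 0.19 for the 317 genes of the lowest bin. Without Rfx6 replicate 3 the 42 genes gave 20 higher and 0 lower, with a median of 1.95, and with replicates 1 and 2 summed 7 and 0. Over all genes the shares were 10.2% higher and 12.1% lower in the former fit, and 1.77% and 2.10% in the latter. A rise was not particular to hindgut genes. Medians of the head with pharynx class went from -0.16 in its lowest bin to 1.17 in its highest. Without Rfx6 replicate 3 they went from -0.32 to 0.15.

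Restricting the class to genes at least 4-fold above both other control tissues left 99 genes, 88 of them tested. Of these, 41 were higher in Rfx6 morphants (46.6%) and 1 was lower (1.14%), against 10.2% and 11.1% of all genes tested. The mean log2 CPM of the 88 genes was 1.43, 1.47 and 2.04 in the Rfx6 libraries, -0.11, -0.18 and 0.98 in the cyclopamine libraries, and 0.19, 0.02 and 0.19 in control foregut. All 3 Rfx6 libraries stood above every cyclopamine and control library, and cyclopamine replicate 3 stood above the other libraries of its group (exact permutation p = 0.1, Rfx6 against cyclopamine). Together the 88 genes made up 0.136%, 0.136% and 0.208% of counts in the Rfx6 libraries, against 0.0757%, 0.0750% and 0.124% in the cyclopamine libraries and 0.110%, 0.142% and 0.112% in control foregut. By these shares, which weight strongly expressed genes, Rfx6 replicates 1 and 2 lay within the control range and replicate 3 above it. Because these genes were chosen for lower values in control foregut than in hindgut, heights over control foregut are not a separate result. Without Rfx6 replicate 3, 29 were higher (33.0%) and 4 lower (4.55%), with a median log2 difference of 0.85. The background in that fit was 10.2% and 12.1%. With replicates 1 and 2 summed, 10 were higher (11.5%) and 1 lower (1.15%) of 87, against 1.77% and 2.10% of all genes.

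**Figure D3:**
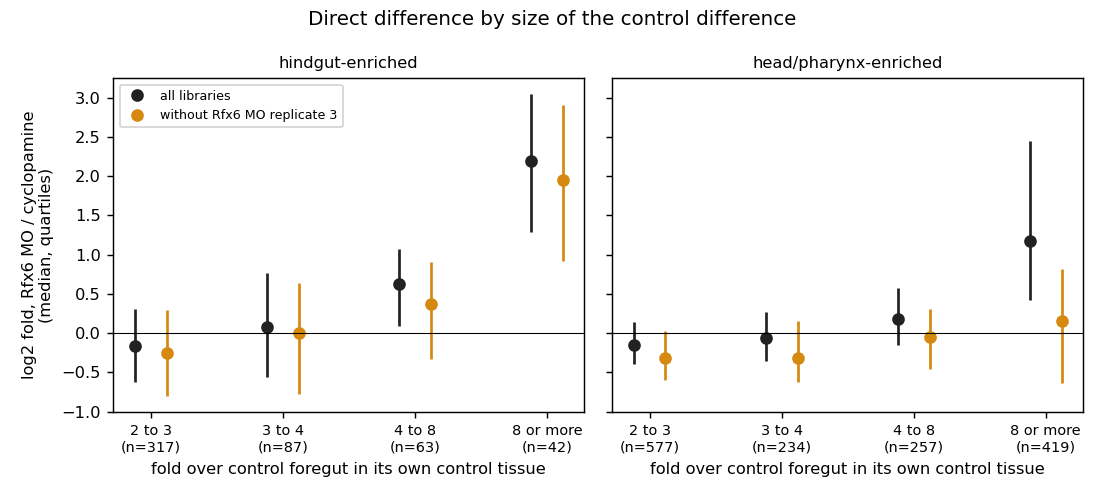
The horizontal axis bins genes by how much higher they were in their own control tissue (hindgut, or head with pharynx) than in control foregut, and the vertical axis gives the median log2 difference of each bin, Rfx6 morpholino over cyclopamine, with lines to the quartiles. Black points use all libraries and orange points leave out Rfx6 replicate 3; the numbers of genes under the bins are for all libraries. The hindgut bin of 8-fold or more stays near 2 in both (2.19 and 1.95), while the head with pharynx bin lies at 0.15 without that library, against 1.17 with it.

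Genes enriched in head with pharynx gave opposite answers depending on Rfx6 replicate 3. Of 1596 such genes, 1487 were tested, 140 were higher in the Rfx6 group (9.41%) and 137 lower (9.21%), both near or under the background, and the median log2 difference was 0.12. Without Rfx6 replicate 3, 101 were higher and 353 lower of 1519, 23.2% lower against 12.1% of all genes in that fit, and the median was -0.18. Without Rfx6 replicate 1 or 2 the counts were 116 and 74, or 107 and 73. The mean log2 CPM of the class was 0.92, 0.92 and 2.00 in the Rfx6 libraries, 1.11, 1.11 and 1.06 in the cyclopamine libraries and 0.53, 0.55 and 0.54 in control foregut. By this mean, Rfx6 replicates 1 and 2 lay between cyclopamine and control foregut, and replicate 3 lay above all of them (exact permutation p = 1). By share of counts, Rfx6 replicates 1 and 2, at 1.14% and 1.13%, lay within the 1.07% to 1.14% of control foregut. Replicate 3 held 1.82%, and the cyclopamine libraries 1.48% to 1.55%. Among the 617 tested genes at least 4-fold above both other control tissues, replicate 3 reached 0.502% of counts, against 0.186% in each of Rfx6 replicates 1 and 2, 0.202% to 0.218% in the cyclopamine libraries and 0.0943% to 0.103% in control foregut. Low values in control foregut were part of the choice of these genes, so heights over it are not a separate result.

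The large class shared by foregut and hindgut held 1422 genes, 1410 of them tested. In the Rfx6 group 247 were higher (17.5%) and 199 lower (14.1%), against 10.2% and 11.1% of all genes tested. The median log2 difference of the class was 0.07. Its mean log2 CPM overlapped between the treated groups, at 3.20, 3.16 and 3.00 in the Rfx6 libraries and 3.01, 3.01 and 3.08 in the cyclopamine libraries, and every treated library lay below the 3.31 to 3.47 of control foregut. The genes called in this class thus moved both ways around a similar mean (exact permutation p = 0.4). The class was chosen for high values in the control foregut libraries, so the lower treated means are not a separate result. With replicates 1 and 2 summed, 46 were higher (3.28%) and 53 lower (3.77%), against 1.77% and 2.10% of all genes. Fits that left out 1 library gave 147 to 286 higher and 140 to 181 lower. The 14108 tested genes of no class gave 1274 higher and 1460 lower, 9.03% and 10.3%, near the shares over all genes. They made up 2734 of the 3936 calls.

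**Figure D4:**
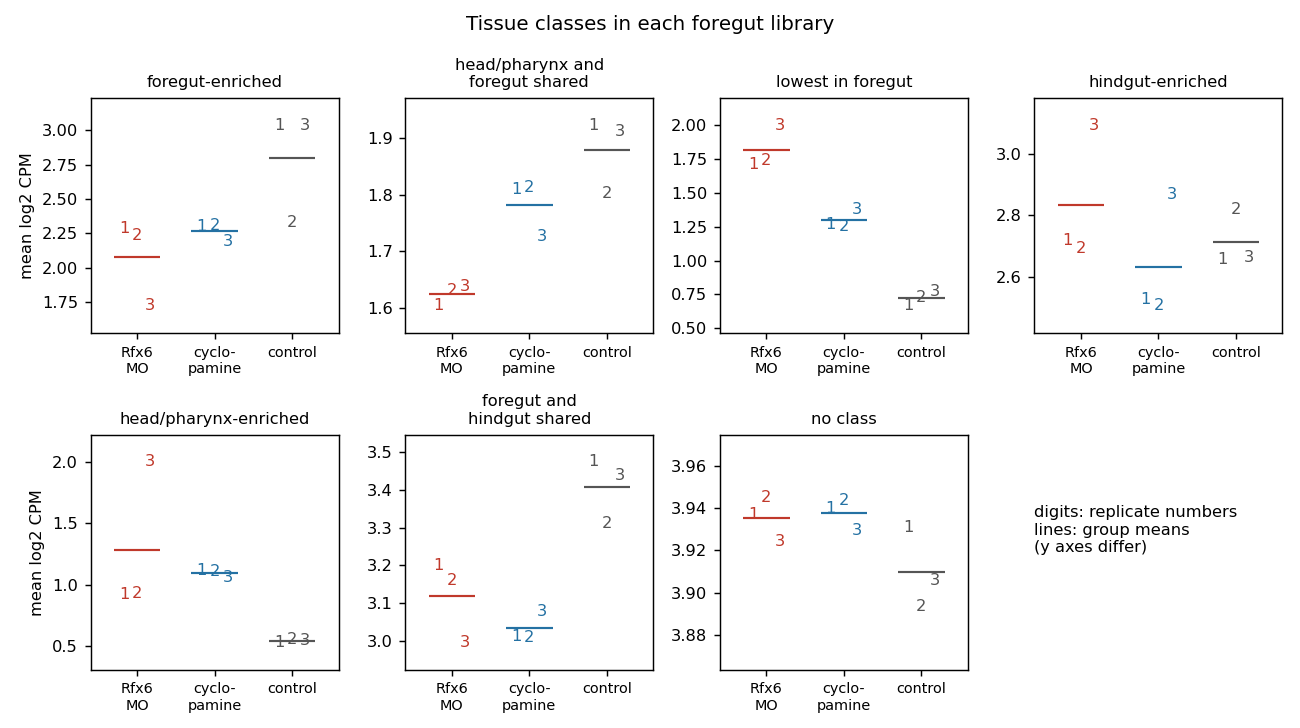
Each panel gives the mean log2 CPM of a control tissue class in every library of the Rfx6 morpholino, cyclopamine and control foregut groups, with digits for the replicate number and lines for group means; vertical axes differ between panels. The treated groups do not overlap in the class shared by head with pharynx and foregut or in the class lowest in foregut, and Rfx6 replicate 3 stands apart in the head with pharynx class at 2.00.

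Position along the axis used genes that differed between control hindgut and control head with pharynx, whatever their level in foregut. It is the place of a library between control hindgut (0) and control head with pharynx (1). Mean log2 CPM over 2456 anterior and 2752 posterior genes sets this position. It was 0.263, 0.270 and 0.422 in the Rfx6 libraries, 0.336, 0.336 and 0.303 in the cyclopamine libraries and 0.204 ± 0.012 (SD, n = 3) in control foregut. The groups were paired for their similar means, 0.318 ± 0.0895 in the Rfx6 group and 0.325 ± 0.0191 in the cyclopamine group (SD, n = 3 each), so the difference of -0.00718 is a description without a test. With Rfx6 replicate 3 left out the difference was -0.0588, and the remaining 2 Rfx6 libraries lay below all 3 cyclopamine libraries. Of 2716 tested posterior genes, 536 were higher in the Rfx6 group (19.7%) and 370 lower (13.6%), against 10.2% and 11.1% of all genes. Of 2337 tested anterior genes, 190 were higher (8.13%) and 313 lower (13.4%), which lies near the same background. In the fit that left out Rfx6 replicate 3, 159 anterior genes were higher (6.70%) and 588 lower (24.8%) of 2374, against 10.2% and 12.1% of all genes.

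For most called genes the control level lay between those of the treated groups. Among the 1883 genes higher in Rfx6 than in cyclopamine foregut, control foregut lay between them for 1140 (60.5%), above both for 373 and below both for 370. The median log2 difference from control of these genes was 0.25 in the Rfx6 group and -0.27 in the cyclopamine group. Among the 2053 lower genes, control lay between for 1224 (59.6%), above both for 411 and below both for 418, and the medians were -0.20 in the Rfx6 group and 0.22 in the cyclopamine group. Over all genes tested, 3197 differed from control foregut in the Rfx6 group (17.2%) and 3698 in the cyclopamine group (19.9%). These comparisons share the control libraries and the direct difference fixes the order of the treated groups, so the values are set side by side only. Choosing genes for that difference also favours a control level between the groups, and the share over all genes was not computed.

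Within a class, the genes called higher and the genes called lower were arranged differently around control foregut. The 97 foregut-enriched genes lower in the Rfx6 group had a median log2 difference from control of -1.26 in that group and -0.07 in the cyclopamine group. The 29 higher ones had -0.18 in the Rfx6 group and -1.16 in the cyclopamine group. In this class, chosen for high values in control foregut, the group with the lower level was thus the one farther from control in either direction of call. The class shared by foregut and hindgut, also chosen for high values there, showed the same arrangement: its 199 lower genes had -0.77 in the Rfx6 group and -0.05 in the cyclopamine group, and its 247 higher genes had 0.15 in the Rfx6 group and -0.73 in the cyclopamine group. The head with pharynx class, chosen for lower values in control foregut than in head with pharynx, showed the opposite one, with the higher group farther from control. Its 140 higher genes had 1.49 in the Rfx6 group and 0.46 in the cyclopamine group, and its 137 lower genes had -0.16 in the Rfx6 group and 0.70 in the cyclopamine group. The direction of the call and the level in the control libraries that defined the classes largely fix these arrangements, so they are not a result about either treatment.

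The identifiers with the largest differences were taken from genes that were called, did not overlap between the groups and averaged at least 5 CPM over the 6 libraries. There were 1355 such higher and 1695 lower genes. The 25 largest increases held 10 hindgut-enriched genes and 6 shared by foregut and hindgut. A further 4 were of head with pharynx, 2 lowest in foregut and 3 of no class. The 25 largest decreases included 14 genes of no class and 1 hindgut-enriched gene. Of all 18542 genes tested, 509 were hindgut-enriched, 1410 shared by foregut and hindgut and 14108 of no class. At 2-fold or more, the same rule held 28 higher and 32 lower hindgut-enriched genes. It held 40 higher and 65 lower genes of no class. The median log2 difference from control of the 25 increases was 1.35 in the Rfx6 group and -0.74 in the cyclopamine group. For the 25 decreases it was -0.21 in the Rfx6 group and 2.47 in the cyclopamine group, so in these 25 the cyclopamine group was farther from control. This did not hold for all 343 genes called at least 2-fold lower, whatever their level. Among them the Rfx6 group was farther from control for 198 and the cyclopamine group for 145, with medians of -0.83 and 0.56. For the 414 genes at least 2-fold higher the numbers were 215 and 199, with medians of 0.73 and -0.69. The 2 largest on each side are described singly, without a known product or position in the genome.

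XBXT10g018020, a gene of the head with pharynx class, was higher in Rfx6 morphants, with 163, 167 and 496 CPM in the Rfx6 libraries against 21.2, 20.6 and 22.3 CPM in the cyclopamine libraries. Control foregut held almost none, at 0.0227, 0.117 and 0.0401 CPM (1, 4 and 1 counts). Both treated groups thus lay far above control foregut, and the Rfx6 libraries lay highest of the 3 groups. The log2 difference was 3.69 ± 0.43 (SE; edgeR adjusted p = 0.000564), and 2.95 without Rfx6 replicate 3. In control head with pharynx the deposited TPM values, which are scaled for gene length, were 210, 222 and 177, against 16.0, 16.5 and 51.6 TPM in the Rfx6 libraries.

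XBXT10g018379, a hindgut-enriched gene, had 38.2, 34.7 and 31.1 CPM in the Rfx6 libraries, 3.10, 3.20 and 9.52 CPM in the cyclopamine libraries and 10.9, 6.09 and 11.1 CPM in control foregut. Rfx6 morphants lay above both other groups, and cyclopamine replicate 3 alone of its group reached the control range. The log2 difference between Rfx6 and cyclopamine was 2.75 ± 0.42 (SE; edgeR adjusted p = 0.00156). Without cyclopamine replicate 3 it was 3.46. With replicates 1 and 2 summed it was 2.46 and the call was lost (edgeR adjusted p = 0.0533). Rfx6 foregut held 13.1 to 15 TPM of it, against 12.8 to 18 TPM in control hindgut.

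XBXT10g016676 belonged to no class and was higher in cyclopamine foregut than in every other library of the series. It had 1.91, 1.91 and 1.23 CPM in the Rfx6 libraries against 36.6, 37.1 and 31.5 CPM in the cyclopamine libraries, while control foregut had 2.02, 0.674 and 1.52 CPM. The Rfx6 libraries overlapped control foregut, and the log2 difference from cyclopamine was -4.36 ± 0.29 (SE; edgeR adjusted p = 5.53e-06). XBXT10g014149, also of no class, was likewise highest in cyclopamine foregut among the 3 groups. It had 0.613, 0.554 and 0.419 CPM in the Rfx6 libraries against 11.5, 9.88 and 10.1 CPM in the cyclopamine libraries. Control foregut had 0.726, 2.58 and 1.00 CPM, above all 3 Rfx6 libraries, and the log2 difference between the treated groups was -4.28 ± 0.40 (SE; edgeR adjusted p = 4.70e-05). On log2(TPM + 1), a scale that shrinks differences of weak genes, it was -1.45 for XBXT10g014149.

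**Figure D5:**
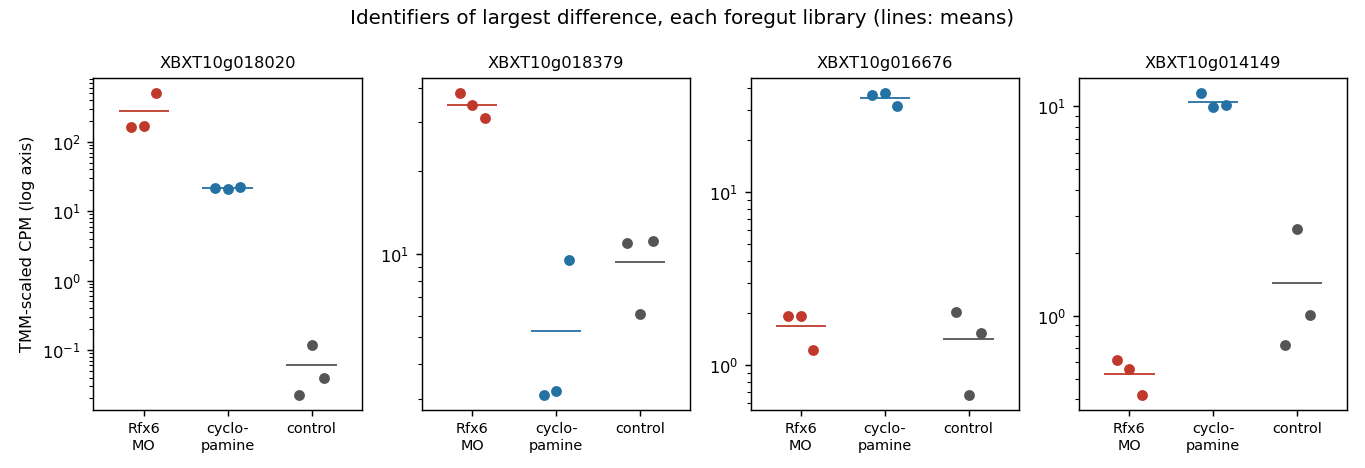
Each panel gives 1 identifier, with a point for every library of the Rfx6 morpholino, cyclopamine and control foregut groups on a log axis of CPM and lines at group means. The first pair was higher in the Rfx6 group (34.6 against 5.27 CPM on average for XBXT10g018379), and the other pair was higher in the cyclopamine group (35.1 CPM against 1.68 CPM in Rfx6 morphants for XBXT10g016676).

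Most genes that were near 0 in control foregut and abundant in the Rfx6 group were abundant in its replicate 3 alone. Of 1389 tested genes under 0.5 CPM in every control foregut library, 34 averaged at least 5 CPM in the Rfx6 group and 1 in the cyclopamine group. Of these 34, 32 belonged to the head with pharynx class and 2 to the hindgut class. Rfx6 replicate 3 held at least 5 CPM of all 34, against 4 in each of Rfx6 replicates 1 and 2, and 2, 1 and 1 in the cyclopamine libraries. Their median level was 0.132, 0.138 and 18.6 CPM in the Rfx6 libraries, 0.0866, 0.113 and 0.127 CPM in the cyclopamine libraries and 0 in control foregut. The test across libraries called 6 of the 34 higher in the Rfx6 group. These genes were chosen for low control foregut and a high Rfx6 mean. Their height over control and cyclopamine foregut, and these calls, are thus not a separate result. By another rule, which did not use control foregut, 38 genes averaged at least 1 CPM in the Rfx6 group with every cyclopamine library under 0.1 CPM. Of these, 1 was called, and 0 genes showed the opposite pattern. A mean can reach this limit through 1 library, and how many of the 38 did so was not counted. Being chosen by their levels in the compared libraries, these genes are not a separate result either.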

How the data were processed

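RNA from pooled explants was sequenced from stranded messenger RNA libraries (per the labels' protocols). Estimated counts, or expected counts, per gene were deposited by the authors, all of them exactly whole with no tolerance (100%). Whether they were rounded is not stated. The authors also deposited TPM values, which they scaled for length and depth. The tools were RSEM 1.3.0 and Bowtie2, per the submitters' processing notes. Build and annotation: not given in the sources used here. Columns were assigned by sample titles. Of 28863 identifiers, 0 matched a table of 28858 RefSeq genes. Identical nonzero counts in all 18 libraries were found for 981 identifiers in 176 groups (39 tested, 2 called), so near-identical copies are uncertain.

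The 12 foregut libraries, totals from 26006163 counts upward, were fitted together in edgeR 4.0.16 (R 4.3.3) with TMM scaling, the filter on low counts at a minimum count of 10, robust quasi-likelihood tests and group as the only term. The common biological coefficient of variation was 0.139. P-values were adjusted by Benjamini-Hochberg over all 18542 genes tested, and the threshold was 0.05. Fold changes are Rfx6 over cyclopamine. Control tissue classes came from the same test on the 9 control libraries. CPM values are TMM-scaled, and mean log2 CPM and axis position used a prior count of 2. Class means over libraries were compared by exact two-sided permutation, whose smallest p is 0.1; axis position, for which the groups were paired, is given without a test. The edgeR step was tested on simulated data.

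Identifiers were named by a rule: the 2 largest increases and 2 largest decreases among called genes with groups that do not overlap and a mean of at least 5 CPM. The comparison, classes and rule were chosen with earlier results of these data known. Alternatives were other scalings, DESeq2 1.42.0, no filter on low counts, the 6 libraries alone, a replicate block, limma 3.58.1 on log2(TPM + 1), left-out libraries, summed replicates and other class limits. The 4-fold classes combined with left-out or summed libraries, and the bins of control difference without Rfx6 replicate 3, were added after seeing the data.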

Additional observations from a re-analysis of the deposited data

How the results depend on the processing

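Each called gene that was tested kept its direction in every count-based alternative, and 3643 of 3664 did on log2(TPM + 1). These fits reuse the same libraries, and the groups did not overlap for 1870 of the 1883 higher and 2039 of the 2053 lower genes. Directions thus had little room to change. The numbers called moved more. Limma on log2(TPM + 1), which changes the test, scaling, filter (16189 genes) and pseudocount together, gave 1048 higher and 1641 lower genes, with 115 higher and 200 lower at 2-fold or more, and a median of all genes of -0.05; the cause was not tested. Summing replicates 1 and 2 of each treated group gave 325 higher and 386 lower, 129 and 154 of them at 2-fold or more, with fewer libraries in the fit. Leaving out 1 library gave 1053 to 1926 higher and 1155 to 2275 lower, with 272 to 419 and 267 to 479 at 2-fold or more. The counts moved beyond 1.5 times without Rfx6 replicate 1 (1172 and 1198) or 2 (1118 and 1155) and without cyclopamine replicate 1 (1053 and 1212) or 2 (1090 and 1253). Leaving out a replicate number from both groups gave 557 higher and 620 lower without number 1 and 538 and 607 without number 2, with 173 and 207, and 184 and 206, at 2-fold or more. Without number 3, which kept the closely matching replicates 1 and 2, 1527 were higher and 1829 lower. Of these, 402 and 457 reached 2-fold. The number of calls thus depended on whether both of these replicates were kept. In every fit with 1 library left out, 908 genes were called higher and 983 lower.

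With the replicate block, 2089 genes were higher and 2343 lower. The labels do not say that a number marks shared embryos. Deviations of same-numbered libraries from their group means correlated at 0.06, 0.11 and 0.08, and every library correlated best with its own number, a hint from the data and not from the design, so the block was not used.

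The axis difference moved between -0.0588 and 0.0204 with 1 library left out. Without control foregut replicate 2 in the class definitions, the medians turned for foregut-enriched (0.04) and hindgut-enriched genes (-0.06). With 3 libraries a group, no exact permutation test can go below 0.1.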
